A study of Homo sapiens with 3 samples.

Results

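Cell division rests on a program of genes that are transcribed in turn. The report describes 47 such genes, listed by symbol, which run from the G1 cyclins through origin licensing, DNA synthesis and the S, G2 and M cyclins to the mitotic kinases, the kinetochore and the proliferation markers MKI67 and TOP2A. They were looked up by symbol among the 16149 genes listed in at least 1 of 3 RNA-seq libraries, and all 47 were listed in all 3 libraries with a mean level of at least 1 RPKM (reads scaled to the length of the transcript and to the library total). The libraries came from cultures of human hepatocellular carcinoma (HCC) cells grown in DMEM, 1 library per cell line. The parent was labelled HCCLM3 with low metastasis ability, HCCLM3 being a line established for its metastasis in nude mice. Subclone 1 was labelled with a higher ability directed to the lung, and subclone 2 with an ability directed to both the lung and the celiac lymph node. According to the study's methods, subclones of this kind were each grown from a single cell of a lung or lymph node metastasis of an HCCLM3 xenograft carrying red fluorescent protein, and the names of the sequenced clones are not given. Each subclone is therefore 1 clone, and the comparison of a subclone with the parent is one of 2 cultures.

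With 1 library per cell line there was no replicate error and no test between cell lines. The reads behind each RPKM value were recovered as whole numbers, and each ratio is given with its exact binomial 95% interval (Clopper-Pearson), which covers counting error only and compares libraries, not conditions. A gene is called higher or lower beyond counting error where this interval lies above or below 1. The totals were 4488825 reads in the parent against 4609696 in subclone 1 and 4725150 in subclone 2. The median member had 450 reads per library against 163 for the median of the 11370 genes averaging at least 1 RPKM, so the same ratio was more often beyond counting error among the members. The hepatic factor HNF4A stood at 11.7 RPKM in the parent, with 11.9 in subclone 1 and 16.0 in subclone 2, and the keratin KRT18 at 953, 1075 and 1048 RPKM. Albumin (ALB) stood at 2.46 RPKM in the parent against 49.5 in subclone 1 and 68.8 in subclone 2. Of the 13 hepatocyte and HCC markers, 11 were listed in at least 1 library, and APOA2 and GPC3 in none. Only 8 had a mean of at least 1 RPKM, and TTR, SERPINA1 and APOA1 had at most 4 reads per library. APOB, like ALB, was highest in subclone 2, whereas TF and FGB were highest in subclone 1. AFP stood at 2.41 RPKM in the parent against 4.16 in subclone 1 and 4.27 in subclone 2, the subclones being within counting error of each other. TF stood at 5.71 RPKM for the parent against 30.3 for subclone 1 and 5.88 for subclone 2. The 5 leukocyte markers summed to 0.847 RPKM in the parent against 2.14 in subclone 1 and 1.31 in subclone 2, with CD3E listed in no library. The 4 endothelial markers summed to 4.74, 11.8 and 7.56 RPKM in the same order, and the 8 fibroblast markers to 15.7, 31.2 and 24.3 RPKM, most of it LUM, while PDGFRA and PDGFRB were listed in no library. These 3 sums were each lowest in the parent and highest in subclone 1, the library in which the members had their lowest share of reads. LUM, DCN and PECAM1 had this order, but not every marker did. COL3A1 was highest in the parent, at 4.42 RPKM against 2.21 for subclone 1 and 0.463 for subclone 2. KDR was highest in subclone 2, at 3.08 RPKM. The leukocyte sum rested on few reads, namely 15 of the parent, 32 of subclone 1 and 28 of subclone 2. The part of these markers in the results was not tested.

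In the cell cycle, D cyclins with CDK4 or CDK6 and E cyclins with CDK2 phosphorylate the RB protein, which frees E2F factors to transcribe the genes of origin licensing and DNA synthesis. Later in the cycle, the MuvB core with MYBL2 and FOXM1 drives the genes of G2 and mitosis through the cell cycle homology region (CHR), often beside CCAAT boxes bound by NF-Y. In HCC, high levels of these genes mark tumors that divide fast.

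The promoters of the members carried these elements, as read from the RefSeq sequences of GRCh38.p14 in windows of 250 bases before to 50 bases after each start site. Of the 47 members, 37 had a window in the table. The letters searched on both strands were TTTGAA and TTCGAA for the CHR, TTTCCCGC, TTTGGCGC, TTTCGCGC and TTTGCCGC for E2F, and CCAAT for the CCAAT box. E2F letters were found in 13 of the 37 members (35.1%), against 6.94% of 9235 expressed genes and 3.99% of all 27305 genes with a window. CHR letters were found in 17 members (45.9%), against 15.7% of expressed and 19.5% of all genes, and CCAAT in 29 members (78.4%), against 43.9% and 39.7%. The elements were divided by role. Among the 17 members of the G1, transcription factor, licensing and DNA synthesis roles, 11 held E2F letters and 2 held CHR letters. Among the 20 members of the G2 and mitotic roles, 2 held E2F letters and 15 held CHR letters. A match of letters is a description and not a bound site. Only these exact letters were searched, so a promoter without a match may still hold another form of the element. Promoters of 6 genes are printed because they show this division in genes on which the results turn, each as the 150 bases before the start site, with the E2F, CHR and CCAAT letters of either strand in capitals. The first 3, of a G1 phosphatase, a helicase subunit and an E2F factor, hold E2F letters. The last 3, of an activator of mitotic exit, a mitotic kinase and a proliferation marker, hold CHR letters. In MKI67, CHR letters and CCAAT letters of the opposite strand overlap in 1 run of capitals.
CDC25A, chr3:48188418-48188567, minus strand: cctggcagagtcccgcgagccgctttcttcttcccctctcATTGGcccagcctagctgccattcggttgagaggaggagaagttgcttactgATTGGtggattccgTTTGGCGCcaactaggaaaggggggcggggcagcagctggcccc
MCM7, first of 3 windows, chr7:100101398-100101547, minus strand: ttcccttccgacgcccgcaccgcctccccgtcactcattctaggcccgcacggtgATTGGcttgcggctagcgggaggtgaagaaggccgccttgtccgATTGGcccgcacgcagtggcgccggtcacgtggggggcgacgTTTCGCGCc
E2F1, chr20:33686386-33686535, minus strand: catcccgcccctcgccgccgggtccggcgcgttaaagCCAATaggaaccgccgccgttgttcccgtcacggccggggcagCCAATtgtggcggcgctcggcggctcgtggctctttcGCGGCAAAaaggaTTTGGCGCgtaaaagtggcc
CDC20, chr1:43358831-43358980, plus strand: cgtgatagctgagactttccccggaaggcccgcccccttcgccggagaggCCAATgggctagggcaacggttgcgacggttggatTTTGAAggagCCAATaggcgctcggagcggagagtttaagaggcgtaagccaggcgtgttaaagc
PLK1, chr16:23678739-23678888, plus strand: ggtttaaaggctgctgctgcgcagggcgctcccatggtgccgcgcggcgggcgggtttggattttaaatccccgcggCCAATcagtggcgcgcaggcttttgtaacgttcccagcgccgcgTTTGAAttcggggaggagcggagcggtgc
MKI67, chr10:128126424-128126573, minus strand: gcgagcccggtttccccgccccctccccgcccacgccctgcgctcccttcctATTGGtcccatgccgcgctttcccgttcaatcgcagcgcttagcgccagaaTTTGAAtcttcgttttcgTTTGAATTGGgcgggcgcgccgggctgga

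The whole set was expressed in all 3 lines. Levels ran from 3.52 to 185 RPKM in the parent with a median of 38.4, from 3.80 to 135 RPKM in subclone 1 with a median of 32.3, and from 3.23 to 146 RPKM in subclone 2 with a median of 35.3. The median of the mean levels was 35.0 RPKM, against 11.1 RPKM for all genes averaging at least 1 RPKM. The members held 34341 reads in the parent, with 31174 in subclone 1 and 33771 in subclone 2, or 0.765%, 0.676% and 0.715% of the totals. As a share of the library their summed reads were thus lower in subclone 1 than in the parent, at 0.884-fold (95% interval 0.870 to 0.898), and lower in subclone 2, at 0.934-fold (0.920 to 0.948). Each library held the RNA of a whole culture, so fewer cycling cells and less mRNA per cycling cell cannot be told apart. In the study's proliferation assay, a clone that metastasized to the lung grew fastest of the tested lines. A clone that metastasized to both the lung and celiac lymph nodes came next. Whether these were the sequenced subclones is not stated, so the assay and the libraries cannot be matched.

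**Figure D1:**
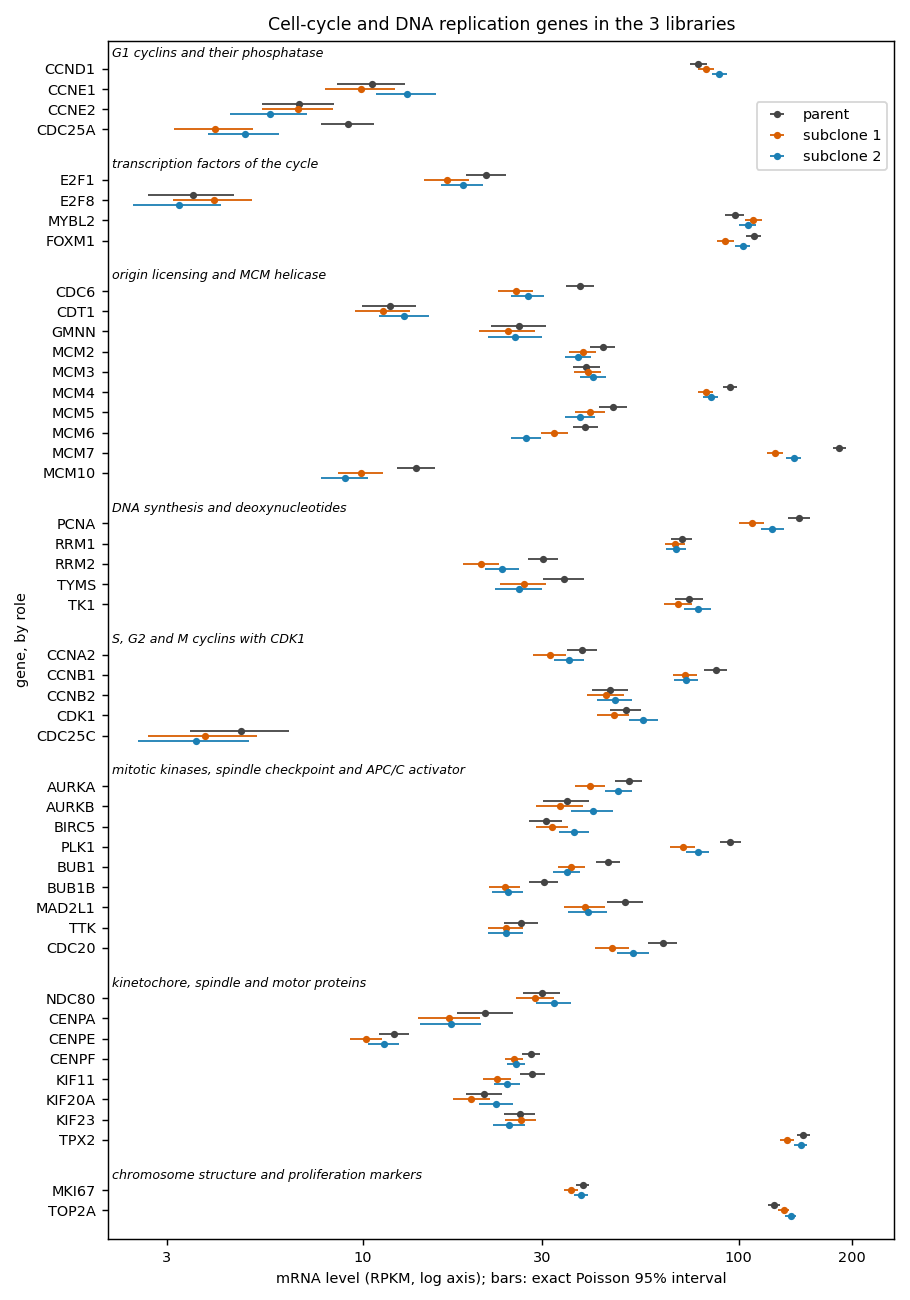
mRNA level (RPKM, log axis) of the 47 members, ordered by role, in the parent, subclone 1 and subclone 2; points are the single libraries and bars the exact Poisson 95% intervals. The members span from 3.23 to 185 RPKM. CDC25A, CDC6, MCM7 and MCM10 are among the members whose parent bar lies apart from those of both subclones, as are PCNA, RRM2 and PLK1.

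The 3 most abundant members of the parent were MCM7 at 185 RPKM, the spindle factor TPX2 at 149 RPKM and the sliding clamp PCNA at 145 RPKM. In subclone 1 they were TPX2 at 135 RPKM, the topoisomerase TOP2A at 132 RPKM and MCM7 at 125 RPKM, and in subclone 2 TPX2 at 146 RPKM, MCM7 at 140 RPKM and TOP2A at 138 RPKM. At the low end, the repressor E2F8 and the phosphatase CDC25C stayed below 5 RPKM in each line, with 36 to 69 reads per library.

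In subclone 1 over the parent, 26 of the 47 members were lower beyond counting error and 2 were higher. Among the 11181 genes averaging at least 1 RPKM with recovered reads, 19.4% were lower and 20.5% were higher. Among the 3682 of them with a mean of at least 20 RPKM, a limit chosen after the values were seen because these genes have more reads, 29.1% were lower and 26.1% higher. The members' median log2 ratio was -0.20, against 0.00 for all genes, and 40 of 47 members had a log2 ratio below 0, against 49.6% of all genes. The differences were small in size. One member, CDC25A, was lower by 2-fold or more and none was higher by as much, where 1.82% and 4.90% of all genes were. At 1.5-fold CDC25A was again the one lower member and none was higher, against 7.46% and 11.6% of all genes. All 26 lower calls were also made under each of 5 other scalings of the libraries. Both higher calls, MYBL2 and TOP2A, were lost under at least 1 scaling. The scalings moved the median log2 ratio of all genes from 0.004 to between -0.126 and 0.018. They could thus remove higher calls but hardly lower ones, so this contrast says little about either.

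In subclone 2 over the parent, 19 members were lower beyond counting error and 4 were higher, against 18.4% and 23.3% of all genes and 27.7% and 30.2% of those with a mean of at least 20 RPKM. The median log2 ratio was -0.13 against 0.04 for all genes, and 34 members were below 0, against 46.5% of all genes. No member differed 2-fold in either direction, where 5.33% of all genes were higher and 2.16% lower by that much. At 1.5-fold, CDC25A and MCM10 were lower and no member was higher, against 7.30% and 12.7% of all genes. Of the 19 lower calls 16 were made under each of the 5 scalings, the exceptions being MCM2, CENPF and KIF11, and of the 4 higher calls 3 were, the exception being MYBL2. Both comparisons rest on the same parent library.

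**Figure D2:**
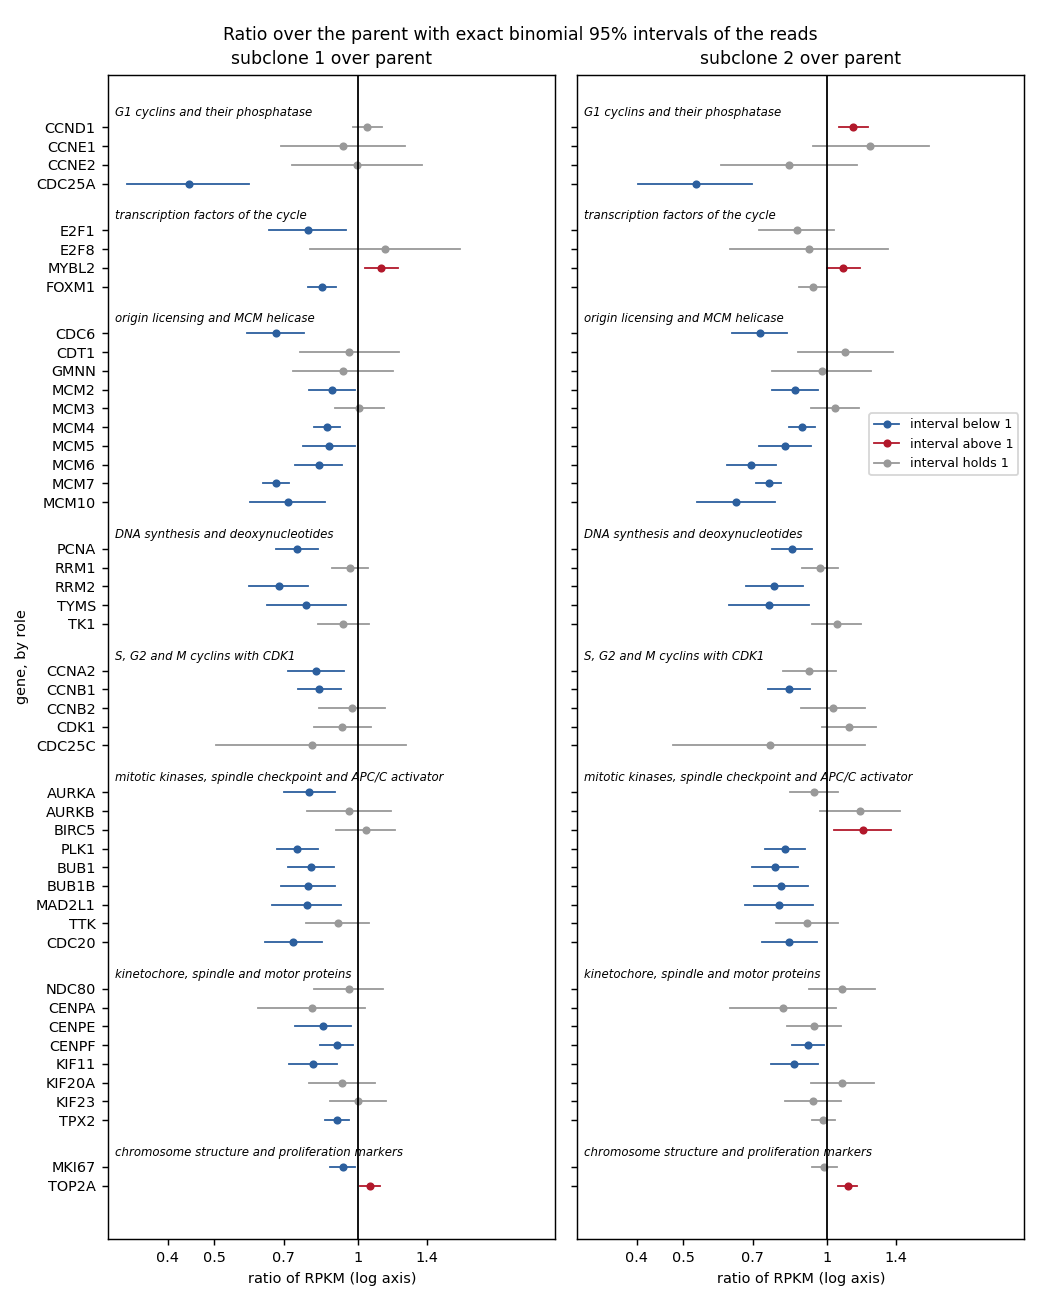
Ratio of RPKM (log axis) of each member in subclone 1 over the parent (left) and in subclone 2 over the parent (right), with exact binomial 95% intervals of the reads; blue intervals lie below 1, red ones above 1 and grey ones hold 1. In subclone 1, 26 members are blue and 2 are red, in subclone 2, 19 are blue and 4 are red; TOP2A in subclone 1 turns to a log2 ratio of -0.047 when the libraries are divided by ACTB.

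**Figure D3:**
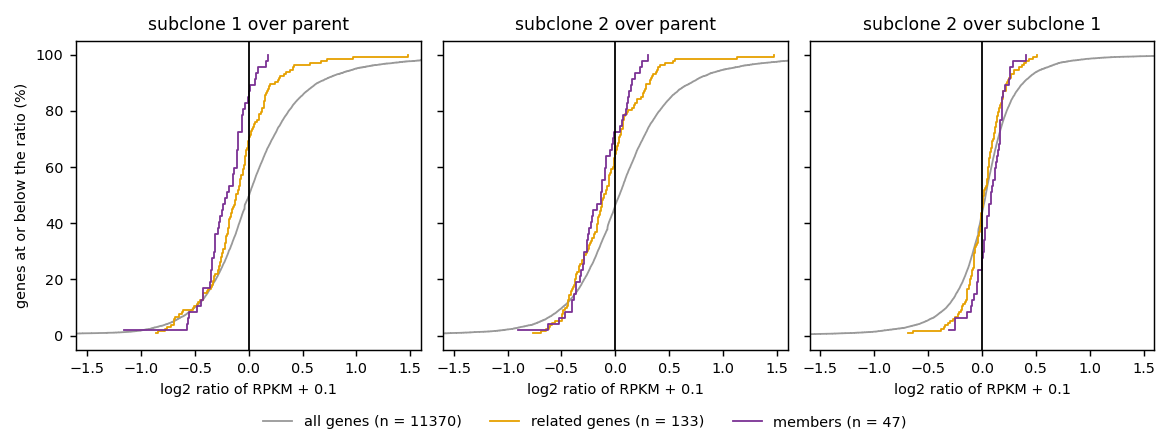
Cumulative share (%) of genes at or below each log2 ratio of RPKM + 0.1, for all 11370 genes averaging at least 1 RPKM (grey), the 133 related cell-cycle genes past that limit (yellow) and the 47 members (purple), in the 3 comparisons. The members' curve lies to the left of that of all genes around 0 for each subclone over the parent, with medians of -0.20 and -0.13 against 0.00 and 0.04.

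The levels of some members could hold reads of other genes. The kit does not mark strand, and 17 of the members share exon bases with another gene in GENCODE 29, where reads of the pair cannot be told apart. The longest stretches on the opposite strand were 1629 bases of CCNE2 with INTS8, 1113 of MCM2 with an antisense RNA, 967 of TYMS with ENOSF1, 781 of FOXM1 with ITFG2, 553 of PLK1 with an antisense RNA, 497 of CCND1 with LTO1 and 392 of MCM7 with AP4M1. On the same strand, RRM2 shares 1077 bases with an unnamed protein-coding gene, BUB1B shares 457 with the readthrough gene BUB1B-PAK6, and CENPA shares 138 with SLC35F6. Processed pseudogenes that could take or give reads are annotated for 8 members, AURKA, BUB1, CCNB2, CDC20, MKI67, PCNA, RRM2 and TYMS. The part of these overlaps in the ratios was not tested.

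Among the 4 genes of the G1 step, CDC25A had the ratios farthest from 1. CDC25A, the phosphatase that activates cyclin E and cyclin A kinases, stood at 9.11 RPKM in the parent (152 reads), 4.03 in subclone 1 (69 reads) and 4.84 in subclone 2 (85 reads). The parent was thus well above both subclones, which gave ratios of 0.442 (0.328 to 0.591) and 0.531 (0.402 to 0.697). This was the lowest ratio of any member in both comparisons with the parent, and its promoter, printed above, holds E2F letters and 2 CCAAT boxes. Cyclin D1 (CCND1), the growth-responsive partner of CDK4 and CDK6, was by far the most abundant G1 cyclin of the list, at 78.2 RPKM in the parent against 82.0 in subclone 1 and 88.9 in subclone 2. It was higher beyond counting error in subclone 2, at 1.14-fold (1.06 to 1.22), and its interval held 1 in subclone 1, at 1.05-fold (0.977 to 1.13). Cyclin E1 (CCNE1), which activates CDK2 at the entry into S phase, stood at 10.6, 9.86 and 13.1 RPKM, and cyclin E2 (CCNE2) at 6.75, 6.73 and 5.64 RPKM in the same order. With 73 to 121 reads each, neither E cyclin differed from the parent beyond counting error. Per length, CCND1 was 7.39 times as abundant as CCNE1 in the parent, 8.31 times in subclone 1 and 6.80 times in subclone 2.

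The transcription factors of the cycle went in different directions. E2F1, an activator of S phase genes, stood at 21.3 RPKM in the parent, with 16.7 in subclone 1 and 18.4 in subclone 2, and was lower beyond counting error in subclone 1, at 0.787-fold (0.653 to 0.947). FOXM1, an activator of G2 and mitotic genes, stood at 110 RPKM in the parent against 92.3 in subclone 1 and 103 in subclone 2, and was likewise lower in subclone 1, at 0.842-fold (0.786 to 0.901). In subclone 2 the intervals of E2F1 and FOXM1 held 1, at 0.866-fold and 0.936-fold, but FOXM1 was called lower there under 4 of the 5 other scalings. MYBL2, the partner of the MuvB core in S phase, had the opposite order. It stood at 97.6 RPKM in the parent, with 110 in subclone 1 and 106 in subclone 2, at 1.12-fold (1.04 to 1.21) and 1.08-fold of the parent. Both MYBL2 calls were lost under another scaling of the libraries. E2F8, an atypical E2F that represses its targets, was low throughout, at 3.52, 4.01 and 3.23 RPKM, with an interval holding 1 in each comparison.

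The 10 genes of origin licensing and the MCM helicase were largely lower in both subclones. These genes load the replicative helicase on origins in G1. Their summed reads were 0.801-fold of the parent in subclone 1 (0.775 to 0.828) and 0.823-fold in subclone 2 (0.796 to 0.849). In each, 7 of 10 were lower beyond counting error (70%, against 19.4% and 18.4% of all genes). The sums leaned on MCM7, which held 2413 of the parent's 8026 reads of the role, and without it the ratios were 0.855 (0.823 to 0.888) and 0.851 (0.819 to 0.884). By the median log2 ratio the role stood at -0.21 in subclone 1, where DNA synthesis stood at -0.36, the mitotic kinases at -0.34 and the S, G2 and M cyclins at -0.27, and in subclone 2 it stood at -0.25 beside -0.26 for the mitotic kinases. CDC6, the loader that joins the helicase to the origin, stood at 37.9 RPKM in the parent against 25.5 in subclone 1 and 27.5 in subclone 2. Its ratios were 0.674 (0.587 to 0.772) and 0.725 (0.634 to 0.828), and its E2F letters lay 7 bases after the start site. CDT1, the second loader, stood at 11.8, 11.3 and 12.9 RPKM, and its inhibitor geminin (GMNN) at 26.0, 24.3 and 25.4 RPKM. Of these 3 genes, CDC6 was lower in both subclones and the intervals of CDT1 and GMNN held 1.

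The 6 subunits of the MCM2 to MCM7 ring did not have equal ratios. MCM7 stood at 185 RPKM in the parent (2413 reads), 125 in subclone 1 (1674 reads) and 140 in subclone 2 (1921 reads), ratios of 0.676 (0.634 to 0.719) and 0.756 (0.712 to 0.803). MCM6 stood at 39.1 RPKM in the parent, with 32.3 in subclone 1 and 27.2 in subclone 2, and was the one member that was lower beyond counting error in subclone 2 than in subclone 1, at 0.840-fold (0.742 to 0.9504), a call lost under another scaling. MCM3 was alike in the 3 lines, at 39.3, 39.6 and 40.9 RPKM. MCM2 stood at 43.5, 38.4 and 37.4 RPKM, MCM4 at 94.9, 81.7 and 84.3 RPKM, and MCM5 at 46.2, 40.3 and 37.8 RPKM, each lower beyond counting error in both subclones. Of the 6 subunits, 5 were lower in each subclone and MCM3 was not. This was 83.3%, against 19.4% and 18.4% of all genes, and the MCM2 call in subclone 2 was lost under another scaling. The summed ratios of the 6 were 0.808 (0.780 to 0.837) and 0.828 (0.800 to 0.857), or 0.879 and 0.867 without MCM7. Between the subunits of highest and lowest RPKM the level differed 4.74-fold in the parent, 3.87-fold in subclone 1 and 5.16-fold in subclone 2. MCM10, which helps to start the helicase, stood at 13.9 RPKM in the parent against 9.89 in subclone 1 and 8.95 in subclone 2, or 0.713-fold (0.593 to 0.856) and 0.646-fold (0.535 to 0.778).

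Among the 5 genes of DNA synthesis, 3 were lower beyond counting error in each subclone (60%, against 19.4% and 18.4% of all genes). PCNA, the sliding clamp of the DNA polymerases, stood at 145 RPKM in the parent, with 108 in subclone 1 and 123 in subclone 2, ratios of 0.747 (0.674 to 0.826) and 0.847 (0.768 to 0.933). The 2 subunits of ribonucleotide reductase, which makes deoxynucleotides, had unlike ratios in subclone 1, with intervals that did not overlap. RRM2, the subunit made in S phase, stood at 30.2 RPKM in the parent against 20.6 in subclone 1 and 23.5 in subclone 2, at 0.682-fold (0.591 to 0.788) and 0.777-fold (0.677 to 0.892), whereas the long-lived subunit RRM1 stood at 70.5, 67.9 and 68.3 RPKM with intervals holding 1. Thymidylate synthase (TYMS), the target of fluorouracil, stood at 34.3 RPKM in the parent, with 26.8 in subclone 1 and 26.0 in subclone 2, at 0.781-fold (0.644 to 0.945) and 0.758-fold (0.625 to 0.917). Thymidine kinase 1 (TK1), of the salvage pathway, stood at 74.0, 69.1 and 77.8 RPKM with intervals holding 1.

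Of the 5 genes of the S, G2 and M cyclins with CDK1, CCNA2 and CCNB1 were lower beyond counting error in subclone 1 (40%). In subclone 2 only CCNB1 was (20%). The shares of all genes were 19.4% and 18.4%, so the share in subclone 2 was near that of all genes. Cyclin A2 (CCNA2) stood at 38.4 RPKM in the parent against 31.4 in subclone 1 and 35.3 in subclone 2, and was lower beyond counting error in subclone 1, at 0.819-fold (0.716 to 0.936). Cyclin B1 (CCNB1), which with CDK1 drives entry into mitosis, stood at 86.8 RPKM in the parent, with 72.2 in subclone 1 and 72.3 in subclone 2, at 0.831-fold (0.750 to 0.920) and 0.833-fold (0.752 to 0.922). Cyclin B2 (CCNB2) had 45.5, 44.3 and 46.9 RPKM, with intervals holding 1. CDK1 itself stood at 50.05 RPKM in the parent against 46.5 in subclone 1 and 55.8 in subclone 2. Its intervals over the parent held 1, and it was higher in subclone 2 than in subclone 1, at 1.20-fold (1.05 to 1.37). CDC25C, the phosphatase of CDK1, had the lowest ratios of the role, at 0.801 (0.504 to 1.27) and 0.760 (0.476 to 1.20). Its intervals held 1, and its 36 to 45 reads per library were too few to show a difference of the size seen in CCNB1.

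Of the 9 mitotic kinases, spindle checkpoint genes and the activator of the anaphase-promoting complex, 6 were lower beyond counting error in subclone 1 and 5 in subclone 2. This was 66.7% and 55.6%, against 19.4% and 18.4% of all genes. The summed ratios of the 9 genes were 0.813 (0.779 to 0.850) and 0.880 (0.844 to 0.919). PLK1, the kinase that drives centrosome maturation and mitotic entry, stood at 95.01 RPKM in the parent, with 71.0 in subclone 1 and 77.8 in subclone 2, at 0.747-fold (0.677 to 0.824) and 0.819-fold (0.744 to 0.900). CDC20, which activates the anaphase-promoting complex, stood at 62.7, 46.0 and 52.4 RPKM in the same order, at 0.733-fold (0.638 to 0.843) and 0.835-fold (0.730 to 0.954). The parent was above both subclones for each of these genes. The checkpoint genes BUB1, BUB1B and MAD2L1 were lower in both subclones, with ratios between 0.778 and 0.803 in the 2 comparisons. The interval of the checkpoint kinase TTK held 1 in both, at 0.908 and 0.910. Aurora A (AURKA), a centrosome kinase, stood at 50.9 RPKM in the parent against 40.3 in subclone 1 and 47.9 in subclone 2, and was lower beyond counting error in subclone 1, at 0.792-fold (0.700 to 0.896).

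The 2 chromosomal passenger genes of the list were not lower in either subclone. Survivin (BIRC5), a passenger subunit that also blocks cell death, stood at 30.7 RPKM in the parent, with 31.9 in subclone 1 and 36.5 in subclone 2, and was higher beyond counting error in subclone 2, at 1.19-fold (1.04 to 1.37). Aurora B (AURKB), the kinase of the same complex, stood at 34.8, 33.4 and 40.9 RPKM, at 0.959-fold (0.782 to 1.18) in subclone 1 and 1.17-fold (0.968 to 1.42) in subclone 2. Both genes had their highest level in subclone 2, AURKB within counting error of the parent.

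Of the 8 kinetochore, spindle and motor genes, 4 were lower beyond counting error in subclone 1 (50%) and 2 in subclone 2 (25%). The shares of all genes were 19.4% and 18.4%, and those of genes averaging at least 20 RPKM 29.1% and 27.7%. Both calls in subclone 2, KIF11 and CENPF, were lost under another scaling. The summed ratios of the role were 0.898 (0.866 to 0.932) and 0.954 (0.920 to 0.989). KIF11, the motor that pushes the spindle poles apart, was lower in both, at 28.3 RPKM in the parent against 22.8 in subclone 1 and 24.2 in subclone 2. CENPF, a large kinetochore protein, had 28.0, 25.3 and 25.5 RPKM and was lower in both. TPX2, the activator of Aurora A, had 149, 135 and 146 RPKM, and CENPE, a kinetochore motor, 12.1, 10.2 and 11.4 RPKM, each lower in subclone 1. NDC80, CENPA, KIF20A and KIF23 had intervals holding 1 in both comparisons, with ratios between 0.802 and 1.08.

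The 2 markers most used to count dividing cells differed little. MKI67, the Ki-67 antigen of cycling cells, stood at 38.4 RPKM in the parent (2158 reads), 35.7 in subclone 1 (2060 reads) and 38.0 in subclone 2 (2248 reads). Its ratios were 0.930 (0.875 to 0.988) and 0.9896 (0.932 to 1.05). TOP2A, the topoisomerase that untangles chromosomes and the member with most reads, stood at 124 RPKM in the parent, with 132 in subclone 1 and 138 in subclone 2. It was higher beyond counting error in both subclones, at 1.06-fold (1.01 to 1.11) and 1.11-fold (1.06 to 1.16), but in subclone 1 its log2 ratio turned to -0.047 when the libraries were divided by ACTB. In sum, MKI67 and TOP2A were at 1.01-fold (0.971 to 1.05) and 1.06-fold (1.02 to 1.10) of the parent. In subclone 1 this sum joined a lower MKI67 with TOP2A, whose higher call was lost with ACTB and with GAPDH as scale. The licensing genes were at 0.801-fold and 0.823-fold, or 0.855-fold and 0.851-fold without MCM7.

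**Figure D4:**
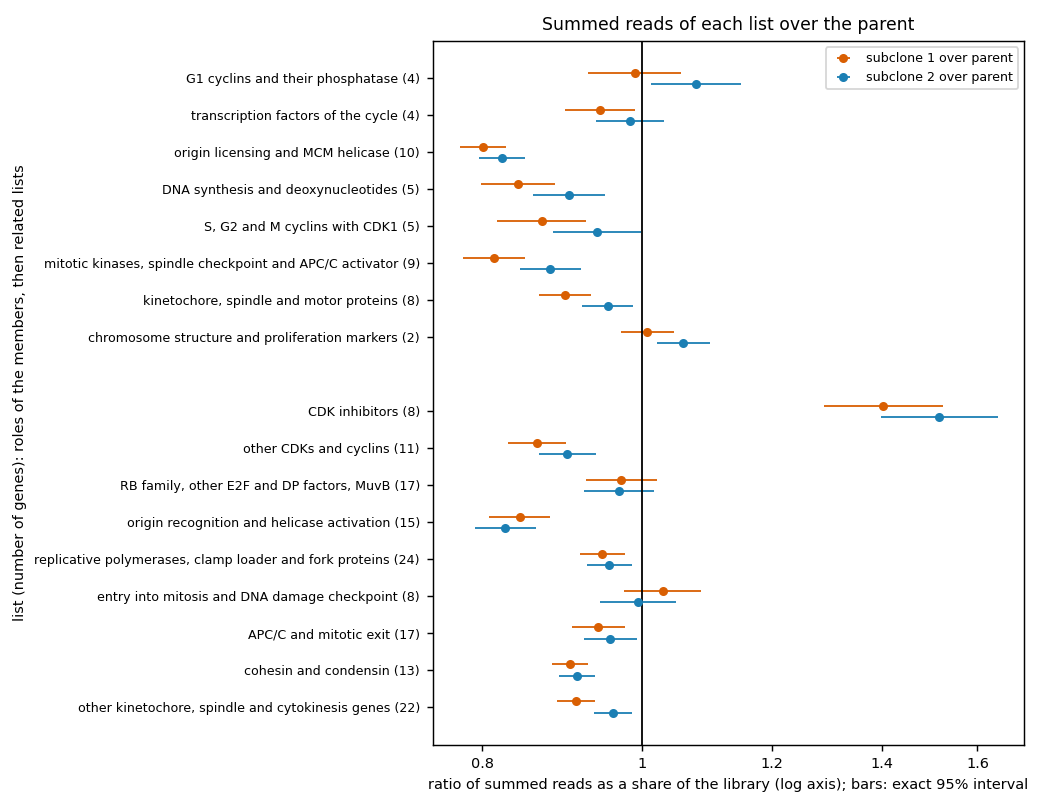
Ratio of summed reads, as a share of the library, over the parent (log axis) for subclone 1 (orange) and subclone 2 (blue), for the 8 roles of the members and, below the gap, 9 lists of related genes, with the number of genes in brackets and exact binomial 95% intervals. By summed reads origin licensing lies lowest among the roles at 0.801 and 0.823, though without MCM7 it would lie at 0.855 and 0.851, above the mitotic kinases in subclone 1, and the CDK inhibitors lie highest among the lists shown at 1.40 and 1.52.

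The ratios were also grouped by promoter letters. The 10 members with E2F but no CHR letters had a median log2 ratio of -0.35 in subclone 1 and -0.23 in subclone 2 over the parent. The 14 members with CHR but no E2F letters had medians of -0.23 and -0.18, and the 10 with neither had medians of -0.18 and -0.01. Members with neither may hold other forms of the elements, so they are not a set free of them. The 10 members without a window had medians of -0.14 and -0.11. The part of the elements in the ratios was not tested. The 3 with both, MCM6, CDK1 and CENPA, had log2 ratios between -0.32 and -0.11 in subclone 1 and between -0.52 and 0.16 in subclone 2. The ranges overlapped widely, from -1.16 to 0.01 in subclone 1 for the first group and from -0.45 to 0.09 for the second. Members with E2F letters thus included both CDC25A, the lowest ratio, and MCM3, whose interval held 1.

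Between the subclones, 11 members were higher beyond counting error in subclone 2 and 1, MCM6, was lower, against 12.0% and 8.77% of all genes and 17.7% and 12.1% of those averaging at least 20 RPKM. No member differed 2-fold, where 1.42% of all genes were higher and 1.39% lower by that much. The median log2 ratio was 0.09 against 0.03 for all genes, and 11 members were below 0, against 43.5% of all genes. The ratios of the 11 higher members ran from 1.06 for MKI67 to 1.33 for CCNE1. They held G1 cyclins (CCND1, CCNE1), FOXM1, replication genes (MCM7, PCNA) and mitotic genes (CDK1, AURKA, AURKB, BIRC5, TPX2, MKI67). This count depended on the scaling: 4 of the 11 were called under each of the 5 scalings, namely FOXM1, MCM7, CDK1 and AURKA, and the count ran from 4 to 26. For the summed reads of all members, subclone 2 was at 1.06-fold of subclone 1 (1.04 to 1.07).

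Of 135 related cell-cycle genes in 9 lists, 134 were listed in at least 1 library, 133 passed the mean of 1 RPKM and 129 of these had recovered reads. In subclone 1, 40 of the 129 were lower beyond counting error and 11 higher, with a median log2 ratio of -0.11 over the 133. This was 31.0% lower and 8.53% higher, against 19.4% and 20.5% of all genes and 29.1% and 26.1% of those averaging at least 20 RPKM. In subclone 2, 38 were lower and 13 higher, with a median of -0.10, or 29.5% and 10.1%, against 18.4% and 23.3% of all genes and 27.7% and 30.2% of those averaging at least 20 RPKM. The share of lower genes was thus near that of genes averaging at least 20 RPKM, though the median of the related genes' mean levels was 17.7 RPKM. The share of higher genes was below that of both sets in each subclone. The list of origin recognition and helicase activation had 8 of 15 genes lower in subclone 1 and 7 in subclone 2, with none higher in either. This was 53.3% and 46.7%, against 19.4% and 18.4% of all genes and 29.1% and 27.7% of those averaging at least 20 RPKM. Its summed ratios were 0.843 (0.808 to 0.880) and 0.826 (0.792 to 0.862). In this list ORC5, a subunit of the origin recognition complex, stood at 63.2, 44.1 and 50.1 RPKM, and GINS2, a helicase partner, at 29.1, 19.0 and 21.2 RPKM in the parent, subclone 1 and subclone 2. Of 24 genes of polymerases, clamp loader and fork, 5 were lower in each subclone (20.8%, near the share of all genes), among them POLA1, the catalytic subunit of polymerase alpha, at 7.56, 4.89 and 4.81 RPKM. In the same list RFC2, a clamp loader subunit, was higher in both, at 28.8, 38.5 and 36.8 RPKM, and RFC3, of the same complex, was lower in both, at 13.8, 8.33 and 9.01 RPKM. These genes were named after their values were seen.

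Of the 9 CDKs and cyclins outside the members with recovered reads, 6 were lower in subclone 1 (66.7%) and 4 in subclone 2 (44.4%), and none was higher in either, with summed ratios of 0.864 and 0.901; the recovered reads of CDK2 among them may be understated. The remaining lists were mixed, with lower shares between 14.3% and 41.7%, to be read against 19.4% and 18.4% of all genes. In the list of the RB family, E2F and DP factors and MuvB, 5 and 4 of 17 were lower and 2 were higher in each subclone. Cohesin and condensin had 4 and 5 of 12 genes lower and 1 higher in each. The APC/C list had 4 of 16 lower in each subclone, and none and 3 higher, and the list of other kinetochore, spindle and cytokinesis genes had 7 and 8 of 21 lower and 1 and 2 higher. Of 7 genes of mitotic entry and the DNA damage checkpoint, 1 was lower and 1 higher in each.

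The CDK inhibitors were the one list of these 9 whose summed reads lay above the parent beyond counting error in both subclones, at 1.40-fold (1.29 to 1.52) and 1.52-fold (1.40 to 1.65). CDKN1A, which encodes p21, an inhibitor of CDK2 induced by p53, stood at 20.01 RPKM in the parent (209 reads), 39.2 in subclone 1 (420 reads) and 55.8 in subclone 2 (614 reads). Its ratios were 1.96 (1.65 to 2.32) and 2.79 (2.38 to 3.28), and it was also higher in subclone 2 than in subclone 1, at 1.43-fold (1.26 to 1.62). CDKN1C, which encodes p57, stood at 10.3 RPKM in the parent (90 reads), 29.03 in subclone 1 (260 reads) and 22.7 in subclone 2 (208 reads), at 2.81-fold (2.21 to 3.62) and 2.20-fold (1.71 to 2.84). These were the only related genes with a 2-fold difference in any comparison. Of the 133 related genes, 1 was at least 2-fold higher in subclone 1 and 2 in subclone 2. Among all genes 4.90% and 5.33% were, so the related genes were not rich in such differences. CDKN2C, the CDK4 and CDK6 inhibitor p18, was higher in subclone 1, at 7.20 RPKM in the parent against 11.5 in subclone 1 and 9.35 in subclone 2. CDKN1B, which encodes p27, was higher in subclone 2, at 15.0, 17.0 and 18.9 RPKM. Without CDKN1A and CDKN1C the summed ratios were 1.04 (0.934 to 1.16) and 1.03 (0.923 to 1.14). The remaining inhibitors, CDKN2A, CDKN2B, CDKN2D and CDKN3, had intervals holding 1 in both comparisons with the parent. In each subclone 3 of the 8 inhibitors were thus higher beyond counting error (37.5%), against 20.5% and 23.3% of all genes.

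Lists of growth response and p53 target genes were set beside these values. MYC, a driver of cell growth and of G1 progression, stood at 88.3 RPKM in the parent, with 54.7 in subclone 1 and 54.4 in subclone 2, at 0.620-fold (0.558 to 0.687) and 0.617-fold (0.556 to 0.683). EGR1 was lower in both subclones, at 21.8, 15.2 and 14.0 RPKM, whereas FOS was higher in both, at 7.74, 12.9 and 13.1 RPKM. JUN, IER2 and FOSB, the last with 5 to 10 reads per library, had intervals holding 1 in both comparisons. Of the 5 growth response genes averaging at least 1 RPKM, 40% were lower and 20% higher in each subclone. Among all genes 19.4% and 18.4% were lower and 20.5% and 23.3% higher. The 10 p53 target genes, CDKN1A among them, summed to 60.0 RPKM in the parent against 80.2 in subclone 1 and 105 in subclone 2. In that list 2 of the 9 genes with a mean of at least 1 RPKM were higher beyond counting error in subclone 1 and 3 in subclone 2 (22.2% and 33.3%, against 20.5% and 23.3% of all genes), and none was lower. Without CDKN1A the list summed to 39.99 RPKM in the parent against 41.1 in subclone 1 and 49.4 in subclone 2. The part of these genes in the levels of the members was not tested.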

How the data were processed

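Total RNA of 3 cultured HCC cell lines was sequenced with 1 library each, prepared per the labels with a kit that does not mark strand. The authors deposited RPKM values per gene, reads scaled by gene length and library total, and listed only genes above 0, namely 14703, 14900 and 14931 genes in the parent, subclone 1 and subclone 2. Genes absent from a library counted as 0 there. The build hg19 comes from the submitters' processing notes; aligner, counter and annotation are not given in the sources used here.

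Groups were taken from the labels. The 47 members, their roles and the related and marker lists were chosen with earlier results of these data known. Whole reads were recovered from the steps of the RPKM values of each gene: 626 and 596 genes with equal reads gave the relative totals, and the first length within 5% of a GENCODE 29 transcript was preferred. Of the 11370 genes averaging at least 1 RPKM, 98.3% were resolved, and the resolved genes held 98.5%, 98.5% and 98.7% of the totals. For 38 of the members the recovered length was within 5% of a transcript. Where length and reads share a divisor, reads can be understated, which widens an interval. The recovery was tested on simulated data.

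Log2 ratios were computed on RPKM + 0.1, which understates differences of low genes; folds with intervals are of reads as shares of the library. Intervals were exact at 95%. No p-value was computed, since 1 library per line allows no test. Named genes were 18 fixed members, the 5 highest and 5 lowest ratios of each comparison, members at 1.5-fold or more, related genes at 2-fold or more and all 8 CDK inhibitors; the remaining members were named to account for each role, and other genes after their values were seen. Alternatives were pseudocounts of 0.01 and 1, the RPKM sum, the median, the upper quartile, ACTB and GAPDH as scale, no filter and a filter of 5 RPKM, 1.5-fold and a 99% interval; summed ratios were also taken without MCM7, CDKN1A or CDKN1C, chosen after the values were seen. Python 3.11.15, numpy 2.4.6, pandas 2.3.3, scipy 1.17.1 and matplotlib 3.10.9 were used.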

Additional observations from a re-analysis of the deposited data

How the results depend on the processing

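Without counting the ratios that leave out a gene, of 135 recomputed summary values, 114 stayed within the set limits and 21 moved. None of the summary values reversed. With the libraries divided by ACTB, the members higher in subclone 1 over the parent numbered 0 and their median log2 ratio was -0.33; with GAPDH they numbered 0 and the median was -0.25. At a 99% interval 1 member was higher there. ACTB moved the median of all genes in that comparison to -0.13, and the members' median stayed 0.20 below that of all genes. In subclone 2 over the parent, the median was -0.17 with centred ratios, -0.17 with the upper quartile and -0.068 with GAPDH, 2 members were lower at 1.5-fold, and 2 were higher at a 99% interval. For subclone 2 over subclone 1, higher members numbered 5 with centred ratios, 4 with the upper quartile, 26 with ACTB, 24 with GAPDH and 5 at a 99% interval. Lower members numbered 0 with ACTB and 0 with GAPDH. The median was 0.054, 0.038, 0.21 and 0.20 under these 4 scalings, while ACTB and GAPDH moved that of all genes to 0.16 and 0.15. Of the values of single members, 1235 stayed and 27 moved, all under ACTB or GAPDH, and 1 reversed: TOP2A in subclone 1 over the parent, at -0.047 with ACTB. No paired analysis was possible because the 3 groups hold 1 library apiece, and none could be left out. Chosen after the values were seen, leaving CDKN1A out of the p53 target genes turned their summed ratio in subclone 1 to 0.9997. CDC25C, E2F8 and the E cyclins had 36 to 121 reads, and their intervals over the parent could not show differences of the size seen in most other members.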
